A study of Mus musculus with 8 samples.

Results

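The goblet cell and mucin genes are 9 genes chosen by symbol, Muc1, Muc2, Muc13, Tff3, Zg16, Fcgbp, Agr2, Spink4 and Spdef, out of 52195 genes in the deposited expression table. All 9 were present in the table, and all 9 passed the filter on low values (at least 2 libraries at 1 FPKM or above), as did 16328 genes in all. The study used bulk RNA-seq of 4 mouse tissues, small intestine, lung, kidney and liver, in the course of work on estimating cell-type composition from bulk profiles. Each tissue had 2 libraries, called replicates 1 and 2. The mice were of the C57BL/6 strain (male C57BL/6J in the study's methods), aged 6 to 10 weeks, and the labels name no allele and no treatment, so that tissue was the only factor. The tissue labels matched their defining markers, since all 6 enterocyte markers and all 6 Paneth cell markers were called higher in small intestine, all 4 alveolar type 2 markers in lung, all 4 proximal tubule markers in kidney and all 4 hepatocyte markers in liver. Whole tissue pieces were ground, so all cell types of each organ contributed RNA, and in such samples fewer cells of a type and less RNA per cell cannot be told apart. All 4 tissues were taken from each mouse, but the labels do not say which libraries came from the same one, and p-values below measure only the spread between these libraries.

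Goblet cells are secretory cells of the intestinal and airway lining that store mucin in granules and release it to form mucus. In the intestine the mucus gel is built by the gel-forming mucin MUC2, which is folded in the endoplasmic reticulum with the help of AGR2, heavily O-glycosylated in the Golgi, and secreted together with smaller proteins such as TFF3, ZG16 and FCGBP. Transmembrane mucins such as MUC13 and MUC1 stay anchored at the apical surface of epithelial cells and are not restricted to goblet cells, and the ETS-family transcription factor SPDEF drives maturation of the secretory lineage. Levels are given as FPKM (fragments per kilobase of gene, scaled to the depth of the library), so levels of different genes can be set side by side per length. Differences are given as log2(FPKM + 1) differences with their standard error (SE) and an adjusted p from limma over all genes tested, and a difference was called at an adjusted p under 0.05 with a size over 1.

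Of the 9 genes 8 were called higher in small intestine than in the other 3 tissues on average and 1, Muc1, was called lower, where 13.7% of all genes tested were called higher and 11.3% lower. The median difference over the 9 genes was 6.71, beside -0.01 over all genes tested. Muc2 and Fcgbp reached 1 FPKM only in small intestine, and Spdef in only 1 library outside it, so these 3 passed the filter through the tissue in which they were high. In lung, 1 gene (Muc1) was called higher than in the other tissues and 6 were called lower, against 40.7% and 8.26% of all genes tested. Of the 6, Spink4 differed by -1.33 ± 0.21 and was not called with a pseudocount of 0.1 (-0.51) or with limma-voom on recovered reads (-0.31). None was called higher in kidney (8.65% of all genes) or liver (6.56%). The numbers called lower were 8 in kidney, where 16.1% of all genes were, and 9 in liver, where 32.7% were. The lung and liver backgrounds depended on scaling, since the median gene lay 0.82 higher in lung than in the rest as deposited and -0.02 after median-of-ratios scaling, under which 14.62% of genes were called higher in lung and 16.02% lower, and 13.93% lower in liver.

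**Figure D1:**
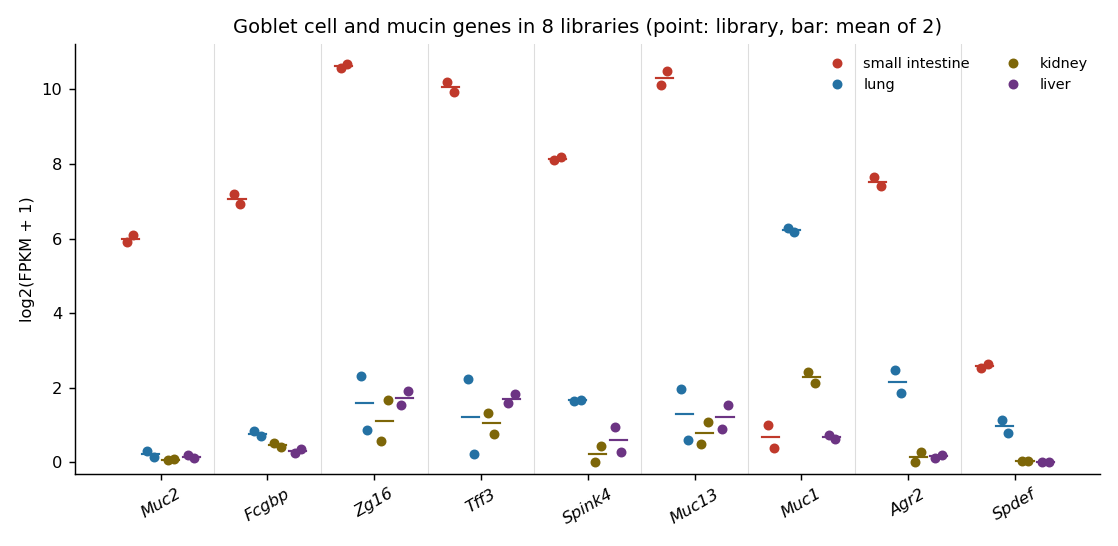
Levels of the 9 genes in the 8 libraries as log2(FPKM + 1), with a point for each library and a bar for the mean of the 2 libraries of a tissue. Both small intestine libraries lie above the 6 others for 8 genes, and both lung libraries lie above the 6 others for Muc1.

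Since 8 genes were high in the same tissue and Muc1 was not, their sequences upstream of the start were set side by side. RefSeq promoters (GRCm38.p6) were at hand for 6 of the 9 genes, Muc1, Muc2, Muc13, Fcgbp, Agr2 and Spdef. The 250 bases before the start were searched on both strands for 5 short motifs named for factors of the lists, TTTATG for Cdx, the E-box CAGCTG for Atoh1, GGATG for Spdef, TGTTTAC for Foxa and CACCC for Klf4. These motifs were chosen after these windows had been looked at with further motifs, and the 2 adjoining CACCC matches of the Muc2 window share a base. Of 32851 windows of the same length, 10.8%, 13%, 37.3%, 3.17% and 52% held them. The Muc2 and Fcgbp windows are shown for the gel and its partner, the Agr2 and Spdef windows for folding and control of the lineage, and the Muc1 window for the gene with the lung pattern. Capitals mark every match on either strand.
Muc2 (chr7:141690090-141690339, + strand): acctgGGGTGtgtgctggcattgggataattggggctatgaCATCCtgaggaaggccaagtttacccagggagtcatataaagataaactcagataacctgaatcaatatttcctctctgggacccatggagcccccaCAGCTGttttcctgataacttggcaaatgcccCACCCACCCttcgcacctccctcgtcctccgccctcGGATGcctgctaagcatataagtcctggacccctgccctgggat
Fcgbp (chr7:28070986-28071235, + strand): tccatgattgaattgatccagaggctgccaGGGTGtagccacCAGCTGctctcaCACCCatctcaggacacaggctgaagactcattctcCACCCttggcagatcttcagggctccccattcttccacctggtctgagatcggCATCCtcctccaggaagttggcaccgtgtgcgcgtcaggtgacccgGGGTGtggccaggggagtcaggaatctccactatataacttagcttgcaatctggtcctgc
Agr2 (chr12:35992675-35992924, + strand): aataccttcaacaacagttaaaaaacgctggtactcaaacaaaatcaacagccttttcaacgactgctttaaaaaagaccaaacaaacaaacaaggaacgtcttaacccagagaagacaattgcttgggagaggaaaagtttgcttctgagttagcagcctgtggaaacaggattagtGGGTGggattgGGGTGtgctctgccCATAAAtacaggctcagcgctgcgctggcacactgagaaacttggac
Spdef (chr17:27728952-27729201, - strand): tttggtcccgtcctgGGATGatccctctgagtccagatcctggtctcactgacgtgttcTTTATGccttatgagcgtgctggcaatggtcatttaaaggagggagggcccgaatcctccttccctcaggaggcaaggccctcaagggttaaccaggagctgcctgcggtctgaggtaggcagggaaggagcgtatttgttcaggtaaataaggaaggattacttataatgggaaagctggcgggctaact
Muc1 (chr3:89228806-89229055, + strand): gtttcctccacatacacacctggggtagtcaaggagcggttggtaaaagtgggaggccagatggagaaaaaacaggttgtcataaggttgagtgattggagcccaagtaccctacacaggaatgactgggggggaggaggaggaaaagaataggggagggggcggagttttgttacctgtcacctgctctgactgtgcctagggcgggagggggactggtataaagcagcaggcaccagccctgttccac

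CAGCTG occurred once each in the Muc2 and Fcgbp windows, which also held 2 and 1 matches to GGATG and 3 and 4 to CACCC. The motif TTTATG occurred once each in the Agr2 and Spdef windows, and in 1 of the 2 Muc13 windows, which also held GGATG once. GGATG occurred once in the Spdef window and CACCC 2 times in the Agr2 window. No window held TGTTTAC, and neither the Muc1 window nor the other Muc13 window held any of the 5. Motifs held by a large share of all windows, such as CACCC and GGATG, were found here as in many other genes, and a match describes letters, not binding.

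Muc2 (chromosome 7, 141690340 to 141754693, + strand, GRCm38), which encodes the gel-forming mucin of intestinal mucus, was at 58.97 and 67.61 FPKM in small intestine. Outside it Muc2 was at 0.244 and 0.113 FPKM in lung, 0.0458 and 0.0567 in kidney, and 0.138 and 0.0815 in liver. Both intestinal libraries stood far above all others, and the lower of them was 241-fold the highest of the other 6 libraries. The difference between small intestine and the rest was 5.85 ± 0.14 (SE, adjusted p = 1.88e-07, limma). The low values rested on few reads, 6 to 17 per library, and no pair among lung, kidney and liver was called for Muc2. In the order of mean levels lung came before liver and kidney, but the pairwise differences were only 0.08 to 0.16 in size.

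Among the secreted partners of the gel, Zg16 (chromosome 7, 127050156 to 127087328, - strand), a lectin that binds bacterial cell walls, had the highest level per length of the 9 genes. It was at 1530 and 1645 FPKM in small intestine and ranked 42nd and 39th of all genes in those libraries. In the other libraries Zg16 was at 3.99 and 0.832 FPKM in lung, 0.482 and 2.21 in kidney, and 1.91 and 2.77 in liver. The tissues other than intestine overlapped one another, and the difference between intestine and the rest was 9.15 ± 0.41 (SE, adjusted p = 1.80e-06, limma).

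Tff3 (chromosome 17, 31125306 to 31129646, - strand), a trefoil peptide secreted with mucin, was at 1182 and 967 FPKM in small intestine. Its levels elsewhere were 3.74 and 0.163 FPKM in lung, 1.51 and 0.703 in kidney, and 1.99 and 2.55 in liver. The lung libraries enclosed all the other values outside intestine, with 18 reads in replicate 1 and 1 read in replicate 2. The difference between intestine and the rest was 8.73 ± 0.46 (SE, adjusted p = 4.10e-06, limma).

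Fcgbp (chromosome 7, 28071236 to 28120862, + strand), a large mucus protein with repeated von Willebrand D domains, was at 146 and 121 FPKM in small intestine, 0.790 and 0.621 in lung, 0.444 and 0.330 in kidney, and 0.198 and 0.295 in liver. The 4 tissues did not overlap for Fcgbp, and the difference between intestine and the rest was 6.55 ± 0.15. On the log2(FPKM + 1) scale lung exceeded liver by 0.45 ± 0.18 and kidney by 0.30 ± 0.18, neither of which was called. The pseudocount of 1 shrinks differences between values under 1 FPKM, and the means were 0.706 in lung, 0.387 in kidney and 0.246 in liver. Of the 31-base windows of its transcripts, 12.3% also occur in 9530053A07Rik, so reads from that stretch could not be assigned to one gene with certainty.

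Spink4 (chromosome 4, 40920052 to 40931395, + strand), a Kazal-type protease inhibitor of goblet cell granules, was at 276 and 289 FPKM in small intestine, 2.15 and 2.19 in lung, 0 and 0.363 in kidney, and 0.915 and 0.203 in liver. The small intestine libraries were highest and the lung libraries came next without overlap, although the lung values rested on 10 and 13 reads. The difference between intestine and the rest was 7.32 ± 0.21 (SE, adjusted p = 2.91e-07, limma). Lung was called higher than kidney by 1.44 ± 0.26 and higher than liver by 1.06 ± 0.26. Under median-of-ratios scaling neither was called, with values of 0.82 and 0.21, and without liver replicate 2 the lung-to-liver difference fell to 0.73, under the size asked of a call. Of 16 alternatives 15 kept the lung-to-kidney call and 13 the lung-to-liver call.

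**Figure D2:**
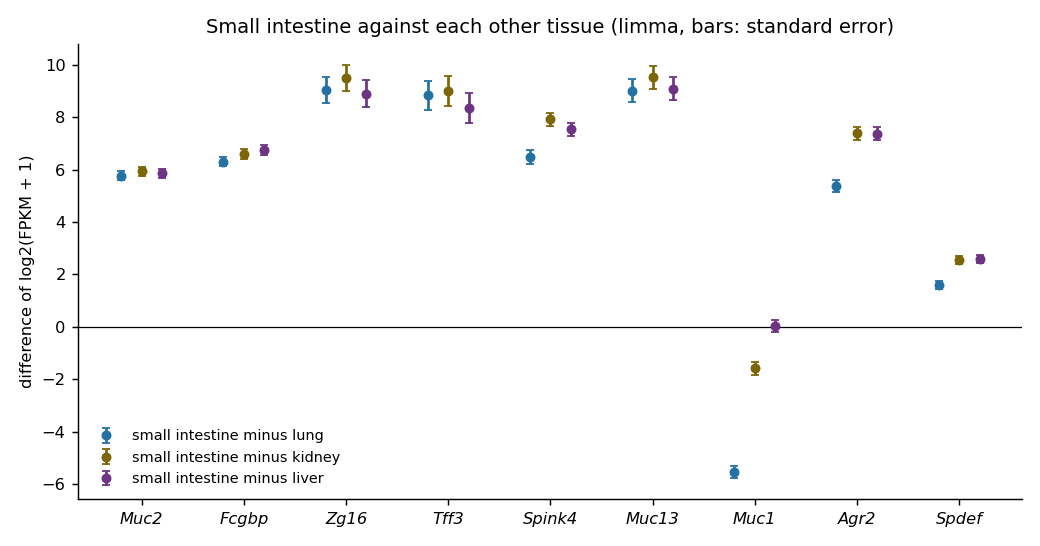
Differences of log2(FPKM + 1) between small intestine and each other tissue for the 9 genes, with bars for the standard error from limma. 8 genes lie above 0 against all 3 tissues, while Muc1 lies at -5.55 against lung, -1.59 against kidney and 0.02 against liver.

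The 2 transmembrane mucins among the 9 genes were highest in different tissues, Muc13 in small intestine and Muc1 in lung. Muc13 (chromosome 16, 33794037 to 33819934, + strand), a surface mucin of the intestinal brush border, was at 1116 and 1435 FPKM in small intestine, 2.90 and 0.530 in lung, 0.399 and 1.12 in kidney, and 0.862 and 1.88 in liver. Only intestine stood apart, and the order of lung, liver and kidney lay within the spread of their libraries. The difference between intestine and the rest, 9.21 ± 0.37 (SE, adjusted p = 9.97e-07, limma), was the largest of the 9. Per length, Muc13 was 18.9 and 21.2 times the level of Muc2 in the intestinal libraries. Of its 31-base windows 6.40% are shared with Madd, and an antisense gene that overlaps it, Gm15657, was at most at 0.350 FPKM.

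Muc1 (chromosome 3, 89229057 to 89233381, + strand), a surface mucin of many glandular and lung epithelia, was the only one of the 9 with its highest level in lung, at 77.57 and 71.52 FPKM. It was at 4.39 and 3.40 FPKM in kidney, 1.002 and 0.301 in small intestine, and 0.651 and 0.537 in liver. Lung stood apart from kidney, and kidney from the other two tissues, whose values overlapped. The difference between lung and the rest was 5.02 ± 0.19 (SE, adjusted p = 7.41e-07, limma), and 3.99 after median-of-ratios scaling. Kidney was called higher than small intestine by 1.59 ± 0.24 and higher than liver by 1.61 ± 0.24. Small intestine and liver differed by 0.02 ± 0.24 (adjusted p = 0.965, limma). The lower level in small intestine than in the mean of the rest, -2.37 ± 0.19, went with higher levels in lung and kidney, not in liver. In small intestine Muc1 had 22 and 8 reads, where Muc13 had 31751 and 49352.

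Markers of lung cell types moved with Muc1 in lung. All 4 alveolar type 2 markers, all 4 alveolar type 1 markers, all 4 ciliated cell markers and all 4 club cell markers were called higher in lung. The summed level of the alveolar type 2 markers was 16378 and 14193 FPKM in lung and 4.93 to 19.8 elsewhere. The summed level of the ciliated cell markers was 391 and 406 FPKM in lung and 0.633 to 10.3 elsewhere. The part of each cell type in the Muc1 level was not tested.

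Agr2 (chromosome 12, 35992907 to 36004087, + strand), a protein disulfide isomerase of the endoplasmic reticulum needed for MUC2 folding, was at 200 and 170 FPKM in small intestine, 4.52 and 2.62 in lung, 0 and 0.224 in kidney, and 0.0845 and 0.150 in liver. Intestine was highest and lung stood between intestine and the other tissues without overlap. The difference between intestine and the rest was 6.71 ± 0.20 (SE, adjusted p = 2.99e-07, limma). Agr2 was called higher in lung than in kidney by 2.01 ± 0.24 and higher than in liver by 2.001 ± 0.24, and by 1.33 and 1.27 after median-of-ratios scaling, where both were still called. With limma-voom on recovered reads they were 5.72 and 4.46, also called. Kidney and liver held 0 to 5 reads of Agr2 per library, so their order could not be resolved at this depth.

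Spdef (chromosome 17, 27714352 to 27728955, - strand) was the lowest of the 8 intestinal genes, at 4.74 and 5.25 FPKM in small intestine. It was at 1.22 and 0.736 FPKM in lung, 0.0213 and 0.0264 in kidney, and 0 in both liver libraries, where 3 reads would be about 0.142 and 0.126 FPKM. Intestine, lung and the other two tissues fell into 3 separate ranges. The difference between intestine and the rest was 2.25 ± 0.12 (SE, adjusted p = 5.04e-06, limma). It was 4.44 with a pseudocount of 0.1 and 5.81 with limma-voom on recovered reads, both called. The lower intestinal library was 3.89-fold the highest lung library, the smallest such gap of the 8 intestinal genes. Lung exceeded kidney by 0.94 ± 0.15 and liver by 0.97 ± 0.15, with adjusted p = 9.64e-04 and 6.06e-04 (limma), which missed the size of 1 asked of a call. With a pseudocount of 0.1 in place of 1 these differences were 3.08 and 3.39 and were called, so the size at these levels depended on the pseudocount. Over 15 alternatives they ranged from 0.57 to 4.81 against kidney and from 0.61 to 5.40 against liver. For each, 11 of the 15 kept the direction and the side of the threshold.

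Across tissue pairs, 33 of 54 differences of the 9 genes were called. Small intestine against lung gave 8 higher and 1 lower, where 10.1% and 30.6% of all genes were called (15.77% and 14.97% after median-of-ratios scaling), and small intestine against kidney gave the same numbers, where 18.8% and 10.7% were. Small intestine against liver gave 8 higher (28.3% of all genes, 15.76% after that scaling) and none lower (7.89%). Lung against kidney and lung against liver each gave 3 higher, Muc1, Agr2 and Spink4, beside 41.4% and 55.5% of all genes (17.25% and 19.35% after median-of-ratios scaling, where Spink4 lost both calls), and kidney against liver gave 1, Muc1, beside 16.2%. These pairs share libraries and are not independent of each other. For each gene on its own, the 2 libraries of its highest tissue lay above all 6 others, with p = 0.0357 in the two-sided exact permutation test, the smallest p that 28 arrangements allow. Because the tissue was picked as the highest one, this p restates the lack of overlap and adds no evidence to it. Such a lack of overlap was seen in 12.8% of all genes tested for small intestine and in 51.4% for lung.

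In sum over the 9 genes, the small intestine libraries held 4515 and 4698 FPKM, which was 0.659% and 0.711% of all summed FPKM. The lung libraries held 97.1 and 79.3 FPKM, and kidney and liver 6.75 to 8.48. The make-up of this sum differed by tissue. In small intestine Zg16, Muc13 and Tff3 gave 33.9%, 24.7% and 26.2% of it in replicate 1 and 35.003%, 30.5% and 20.6% in replicate 2, and Muc2 gave 1.31% and 1.44%. In lung Muc1 alone gave 79.9% and 90.2%.

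Of the values of the 9 genes outside small intestine, 4 of 54 were 0 (Agr2 and Spink4 in kidney replicate 1 and Spdef in both liver libraries). The low levels of the 8 intestinal genes outside small intestine were set beside 12 markers of enterocytes and Paneth cells, which neither lung, kidney nor liver contains. As a percentage of the small intestine mean, the 8 genes had a median of 0.488% in lung replicate 1 and 0.321% in lung replicate 2, where the 12 markers had 0.263% and 0.0485%. In kidney the medians were 0.0518% and 0.125% for the 8 genes and 0.0439% and 0.130% for the markers, and in liver 0.134% and 0.138% against 0.118% and 0.143%. Between the kidney replicates 6 of the 8 genes and 10 of the 12 markers were at a higher share in replicate 2, while 72.9% of all genes tested were higher in replicate 1. The exceptions were Tff3 and Fcgbp among the genes and Vil1 and Apob among the markers. The gap between the set medians was not tested. In lung replicate 1 Muc13, Zg16 and Tff3 were at 0.227%, 0.251% and 0.348%. In lung replicate 2 they were at 0.0415%, 0.0524% and 0.0152%, the last resting on 1 read. Spdef at 24.4% and 14.7%, Agr2 at 2.45% and 1.42% and Spink4 at 0.761% and 0.777% lay above the marker median in both lung libraries, as did Fcgbp at 0.591% and 0.464% and Muc2 at 0.386% and 0.178%. Within the markers, Lyz1 was at 11.4% and 11.0% in lung, Vil1 at 7.38% and 5.62% in kidney, and Apob above 100% in liver, so not every marker was intestinal alone. The source of the low levels was not tested.

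**Figure D3:**
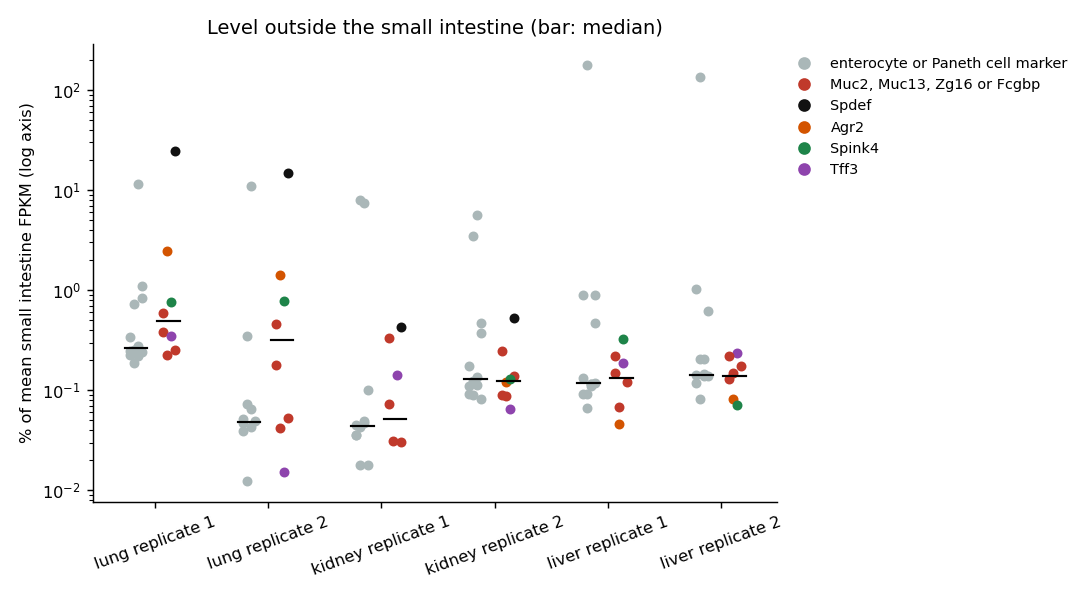
Levels in the 6 libraries outside small intestine as a percentage of the small intestine mean, on a log axis, for the 8 intestinal genes and for 12 enterocyte and Paneth cell markers, with a bar for the median of each set and 8 values of 0 not drawn. Spdef and Agr2 lie above the other genes of the set in both lung libraries, and the ranges of the 2 sets overlap in all 6 libraries.

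The lung values of Agr2, Spdef and Spink4 stood beside airway secretory genes. The summed level of 4 club cell markers was 46599 and 61909 FPKM in lung, 20.9 and 28.3 in small intestine, 25.1 and 56.4 in kidney, and 517 and 466 in liver, where 1 of them, Cyp2f2, was called higher than in the rest. Of 5 tested markers of airway goblet cells and submucosal glands, Bpifa1, Bpifb1, Ltf and Muc5b were called higher in lung and Dmbt1 lower, and the summed list was at 243 and 106 FPKM in lung and 175 and 111 in small intestine, where Dmbt1 made nearly all of it. Muc5ac, the usual gel-forming mucin of airway goblet cells, was at 0.257 and 0.165 FPKM in lung, at 0.407 and 0 FPKM in small intestine replicates 1 and 2, and at 0 in kidney and liver. The part of these cells in the lung levels was not tested.

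The other mucins were also read by tissue. Among gel-forming mucins Muc5b, a mucin of the airways, was at 5.35 and 3.29 FPKM in lung and at 0 in both intestinal libraries, and was called higher in lung than in the rest. Muc5ac, Muc6 and Muc19 did not pass the filter: Muc19 was at most at 0.169 FPKM, and Muc6, a mucin of stomach and duodenal glands, was at 21.1 FPKM in small intestine replicate 1 and 0.0660 in replicate 2. Of 6 tested transmembrane mucins 4 were called higher in small intestine than in the rest (Muc13, Muc3, Muc3a and Muc4) and 2 lower (Muc1 and Muc20). The shares over all genes were 13.7% and 11.3%. In lung against the rest 3 were called higher, Muc1, Muc20 (1.37 ± 0.20) and Muc4 (1.35 ± 0.13), beside 40.7% of all genes called and a median gene 0.82 higher. After median-of-ratios scaling Muc20 and Muc4 were at 0.74 and 0.77 in lung and were not called.

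Muc3, a brush border mucin, was at 279 and 309 FPKM in small intestine and at most 0.580 elsewhere, a difference of 7.91 ± 0.18. Muc3a was at 15.2 and 15.6 FPKM there and at most 0.554 elsewhere, so Muc3 and Muc3a both passed the filter only through small intestine. Muc4 was at 2.14 and 2.67 FPKM in small intestine and 3.38 and 2.43 in lung, and at most 0.0278 in kidney and liver. Muc20 shares 13.5% of its 31-base windows with Muc4 and was at 3.87 and 1.88 FPKM in lung, 2.23 and 1.52 in kidney, at most 0.0796 in small intestine, and 0 in liver. Muc15 was at most at 0.0225 FPKM and Muc16 at most at 0.303 FPKM, each in lung.

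**Figure D4:**
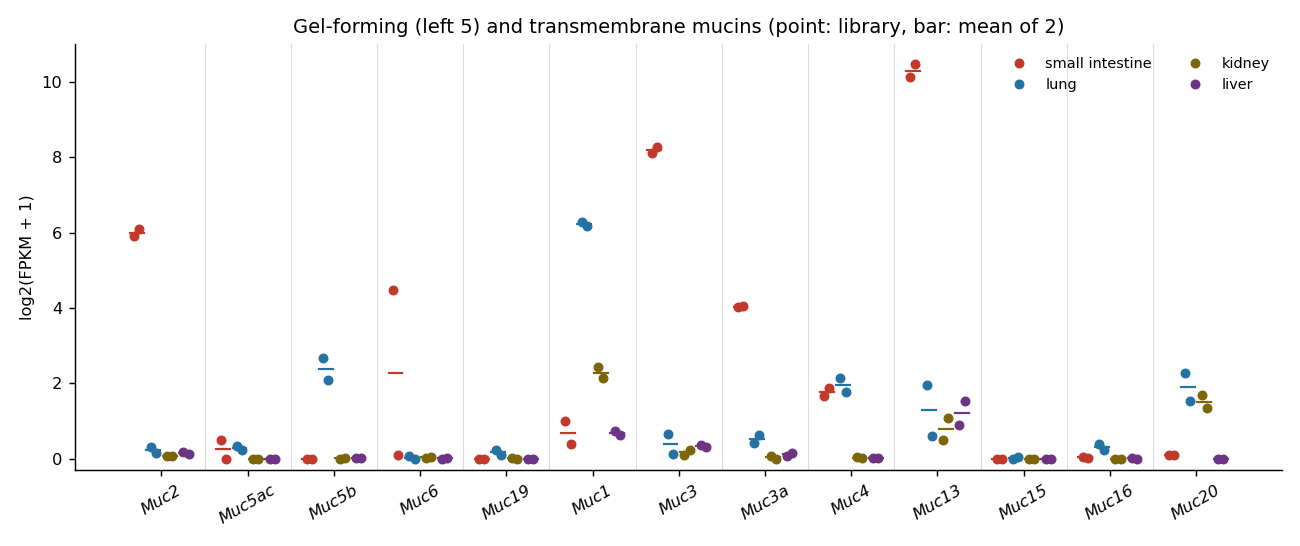
Levels of 5 gel-forming and 8 transmembrane mucins in the 8 libraries as log2(FPKM + 1), with a point for each library and a bar for the mean of the 2 libraries of a tissue. Muc2, Muc3, Muc3a and Muc13 are high in small intestine, Muc1 and Muc5b in lung, and Muc6 in 1 small intestine library.

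Of the 61 other tested genes of the goblet cell and mucus lists, 38 were called higher in small intestine than in the rest. A further 2 were lower and 21 not called, where 13.7% of all genes tested were called higher and 11.3% lower. The median difference of the 61 genes was 1.88. Some of the 38, such as Muc3, Muc3a, Cdx1, Cdx2 and Atoh1, reached 1 FPKM only in small intestine and so passed the filter through it. The secreted products besides the 4 described above were called higher in 13 of 14 cases. One of these, Klk1, was highest in kidney, at 1335 and 899 FPKM against 98.3 and 64.1 in small intestine, and was called lower in small intestine than in kidney (-3.77 ± 0.36), an exception singled out after its values were seen. Lypd8, a protein that keeps flagellated bacteria off the epithelium, had 1492 and 1164 FPKM (9.25 ± 0.34), Itln1, a lectin, had 913 and 1311 FPKM (7.87 ± 0.41), and Ang4, an antimicrobial ribonuclease, had 128 and 263 FPKM (7.34 ± 0.27). Itln1 was also at 36.9 and 13.1 FPKM in lung. Sytl2, a granule docking protein, was not called (0.28 ± 0.17), and Tff1, a stomach trefoil peptide, did not pass the filter and was at most at 0.811 FPKM.

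Enzymes of mucin O-glycosylation and sulfation were called higher in small intestine for 9 of 15 tested genes and lower for 1, Gcnt1. Over all genes these shares were 13.7% and 11.3%. St3gal4, a sialyltransferase, was at 500 and 431 FPKM in small intestine against 2.57 to 24.0 elsewhere (5.24 ± 0.13). B4galnt2, which adds N-acetylgalactosamine to make the Sd(a) antigen, was at 16.7 and 31.1 FPKM (4.46 ± 0.22), and B3gnt3, which extends core 1 chains, was at 45.6 and 49.9 FPKM (4.11 ± 0.14). Gcnt3, Gcnt4 and Galnt12 were higher by 2.68 ± 0.10, 2.35 ± 0.16 and 2.18 ± 0.14. C1galt1c1, the chaperone of the core 1 synthase, was at 11.1 to 28.3 FPKM in all libraries and was not called, nor was St3gal1 (-0.78 ± 0.17).

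Of 7 tested folding and stress genes besides Agr2, 3 were called higher in small intestine, beside 13.7% of all genes. These were Ern2, the IRE1 paralog of mucous epithelia (2.67 and 3.16 FPKM, 1.91 ± 0.09), Creb3l4 (4.96 and 3.47 FPKM, 1.64 ± 0.15) and Creb3l1 (6.77 and 5.56 FPKM, 1.07 ± 0.15). Creb3l1 was higher still in lung, at 11.3 and 9.65 FPKM. The general chaperone gene Hspa5, at 84.6 to 192 FPKM, and the stress factor gene Xbp1, at 25.8 to 98.9 FPKM, were expressed in all tissues and were not called in small intestine against the rest. Xbp1 was called higher in lung than in the rest (1.03 ± 0.19) and lower in kidney (-1.11 ± 0.19), but after median-of-ratios scaling these were -0.13 and -0.83 and neither was called.

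Among transcription factors and Notch signals besides Spdef, 6 of 12 were called higher in small intestine (13.7% of all genes) and none lower (11.3%). In lung 6 of the 12 were called higher (Dll1, Dll4, Foxa1, Foxa2, Hes1 and Klf4, beside 40.7% of all genes). Foxa3, counted among the 6 in small intestine at 4.98 and 4.29 FPKM, was at 12.3 and 10.5 FPKM in liver and was called higher there too. The intestinal homeobox genes Cdx1 (55.6 and 62.2 FPKM) and Cdx2 (23.9 and 27.5 FPKM) were at most at 0.176 and 0.0256 FPKM elsewhere. Atoh1, which commits progenitors to the secretory lineage, was at 4.03 and 5.95 FPKM in small intestine and had no value above 0 outside it except 0.0379 FPKM in lung replicate 2. Elf3 differed by 4.33 ± 0.16, and Klf4, a factor of goblet cell differentiation, by 2.90 ± 0.25, with lung at 71.4 and 79.0 FPKM, inside the range of 55.3 and 88.8 FPKM of small intestine. Hes1, a Notch target (-1.21 ± 0.48), and Foxa2 (-0.94 ± 0.17), which was at 16.6 and 18.3 FPKM in lung, were not called.

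Of 8 tested genes of ion transport and release, which set the salt, bicarbonate and water that mucus needs to unfold, 4 were called higher in small intestine (median of the list 0.89, beside 13.7% of all genes called) and 5 in lung (median 1.15, beside a median of 0.82 and 40.7% called over all genes, or 14.62% after median-of-ratios scaling). Those higher in small intestine were Slc26a3, a chloride-bicarbonate exchanger (4.71 ± 0.11), Cftr, the apical chloride and bicarbonate channel (2.43 ± 0.13), Kcnn4 (2.03 ± 0.14) and Slc12a2 (1.81 ± 0.18). Slc12a2 was at 20.9 and 24.96 FPKM in small intestine and 23.4 and 21.03 in lung, which overlap. Vamp8, a granule fusion protein (-0.03 ± 0.14), and Slc4a4 (-0.18 ± 0.25) were not called in small intestine, and the genes called higher in lung were Ano1, Kcnn4, Slc12a2, Slc26a9 and Vamp8.

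Profiles most like those of the 9 genes were found by the root mean square (RMS) difference of centred log2(FPKM + 1) values over the 8 libraries. For Muc2 these were Cdx1 (0.0561), Trim31 (0.0893) and Cyp2c66 (0.101). Zg16 and Muc13 were each other's nearest gene (0.179), followed for both by Lypd8 and the defensin-like AY761184. Tff3 was nearest to Alpi (0.409), Lypd8 and Ctrb1, and had only 5 genes within 0.5, the fewest of the 9. Agr2 was nearest to Plac8 (0.253), Ada and Clca1, and Spink4 to H2-Q2 (0.205), Lgals2 and Akp3. Fcgbp was nearest to H2-T3 (0.205), Gm45912 and Gm1123, where H2 genes belong to a family of near-identical copies. Spdef was nearest to Gdpd2 (0.119), Slc35c1 and Tnfrsf11a, with 458 genes within 0.5. Muc1 was nearest to Limch1 (0.223), Lypd2 and Cav2, which were all highest in lung and next in kidney.

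Between the 2 small intestine libraries, the replicate difference (replicate 1 minus replicate 2) of the 9 genes ranged from -0.361 for Muc13 to 0.622 for Muc1. None of the 9 exceeded 1 in size, and 2.69% of all genes tested did. The median size was 0.235 for the 9 genes and 0.178 for all genes tested, and Muc1 stood at the 92.3 percentile of all genes. Some other listed genes differed far more. Tff2, a trefoil peptide of stomach and Brunner's glands, was at 935 FPKM in replicate 1 and 7.56 in replicate 2, Gkn1 and Gkn2 were at 30.6 and 66.7 FPKM against 0, Pgc was at 22.7 against 0.445 FPKM, and Muc6 followed the same pattern. The 8 pancreatic acinar markers summed to 2893 and 1325 FPKM. Tff2 was counted among the higher genes above, and its difference from the rest, 4.34 ± 1.46, was 0.96 and not called without small intestine replicate 1. Without replicate 2 it was 7.73 and called. With any 1 library of lung, kidney or liver left out it stayed at 4.15 to 4.53 but was not called. Tff2 was also not called without the filter on low values (4.34) or with limma-voom on recovered reads (5.03). In the opposite direction between the replicates, Defa22, a Paneth cell defensin from a family of near-identical copies, was at 56.1 and 1517 FPKM and Guca2a, whose product guanylin is a secreted peptide, at 117 and 420 FPKM. With either small intestine library left out 8 genes were called higher, but the lone library was then assumed to vary like the other tissues. Apart from Muc6, which the naming rule took in, the genes of this paragraph were chosen after their values were seen. The part of these differences in the goblet cell levels was not tested.

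**Figure D5:**
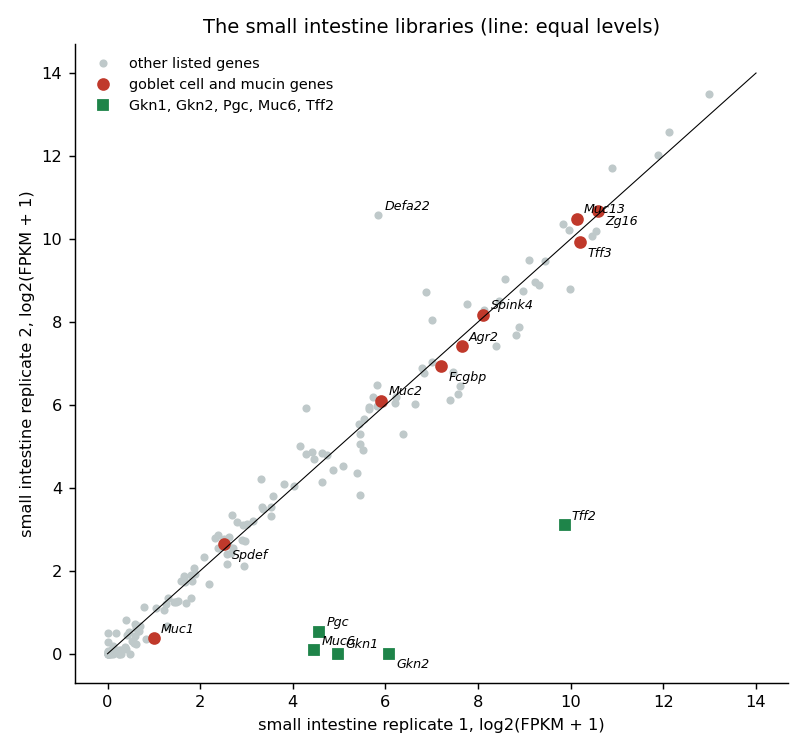
Levels in small intestine replicate 1 (horizontal) and replicate 2 (vertical) as log2(FPKM + 1), with a line of equal levels. The 9 goblet cell and mucin genes lie close to the line, while Tff2, Muc6, Gkn1, Gkn2 and Pgc are high in replicate 1 alone and Defa22 is higher in replicate 2.

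In lung, 8 of the 9 genes were higher in replicate 1 than in replicate 2, where 39.0% of all genes tested were. Tff3, Zg16 and Muc13 differed by more than 1, as did 2.57% of all genes, the largest of the 9 being 2.03 for Tff3, and Spink4 was the exception to the direction, at -0.02. Intestinal markers moved the same way, with replicate differences of 1.89 for Fabp2, 1.17 for Alpi and 2.25 for Defa17, though Lyz1 was at 0.06. So did the kidney markers Miox (1.42) and Slc34a1 (1.36), the airway genes Bpifa1 (1.28) and Bpifb1 (1.27) and the hepatocyte marker Alb (0.81). Airway genes were not uniform: the club cell markers Scgb1a1 (-0.44) and Cyp2f2 (-0.16) went the other way, while Scgb3a1 (0.63) and Scgb3a2 (0.16) did not. These examples were picked with their values in view. The part of this in the lung levels was not tested.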

How the data were processed

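Bulk RNA-seq libraries of 4 tissues, 2 per tissue, were analysed. Per the study's methods the authors captured polyadenylated RNA, made libraries from double-stranded cDNA with a TruePrep kit, aligned reads with STAR (2.5.3a, per the submitters' processing notes) to Ensembl gene models and deposited FPKM values computed with DESeq2. The counting program, its strand setting and the treatment of reads with several alignments are not given in the sources used here. The deposited FPKM values are not counts, so tests ran on log2(FPKM + 1) with limma 3.58.1 in R 4.3.3, all 8 libraries in 1 fit with a trend, keeping genes that reached 1 FPKM in 2 or more libraries, and Benjamini-Hochberg adjustment. FPKM times the summed exon length of GENCODE M21 came in steps of whole reads, and reads were recovered from these steps. Within a tolerance of 0.02, 94.6% to 96.1% of values from 0 to 50 reads were whole. The implied depth was 9164189 to 21444696 reads per library. Spdef did not come out whole with its annotated length, so its read numbers, and the floor and read-based test that use them, are approximate. Coordinates, on GRCm38, are those of GENCODE M21. On data simulated for small intestine against the rest, 97.3% of 185 genes changed 4-fold and 39.3% of 183 changed 2-fold were recovered, none in the wrong direction. False genes were 13.5% and 20% over all genes, and 1.66% and 1.37% over genes with a mean of 20 reads or more. Both were counted at an adjusted p under 0.05 alone, without the size over 1, so these are not the rates of the calls above. The simulation set the same spread for all genes.

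The 9 genes, the gene lists and the tests were chosen with earlier results of these data known. Named were all 9 genes, every gel-forming and transmembrane mucin in the table, up to 6 called and 2 uncalled genes of each other list, and the 3 nearest profiles of each gene. Alternatives were another pseudocount, filter, scaling, limma without a trend, limma-voom on recovered reads, each library left out, each other tissue alone, and a replicate block. Tools were Python 3.11.15, numpy 2.4.6, pandas 2.3.3 and matplotlib 3.10.9.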

Additional observations from a re-analysis of the deposited data

How the results depend on the processing

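Low values of short genes rested on few reads, and 10 of 54 values of the 9 genes outside small intestine were under 3 reads, 4 of them at 0. The number of genes called higher in small intestine was 7 or 8 over 16 alternatives (7 with an FPKM filter of 5, which removed Spdef), and the number called lower was 1. None was called higher in kidney or liver under any of them. In lung 2 genes were called higher, Muc1 and Spdef, both with a pseudocount of 0.1 and with limma-voom on recovered reads. Muc1 in small intestine against liver alone was 0.0189, of opposite sign to its value against the mean of the rest. Pairwise calls ranged from 30 to 37 of 54, and calls among the 61 other listed genes from 31 to 41. Agr2 in lung against the rest was -0.45 (adjusted p = 0.063, limma) as deposited and -1.10, called lower, after median-of-ratios scaling, while it was 0.88 with a pseudocount of 0.1 and 1.48 with limma-voom on recovered reads, of opposite sign and not called. Spdef in lung against the rest was 0.10 as deposited, -0.24 after median-of-ratios scaling and -0.0765 to 0.277 with each library left out in turn (lowest without lung replicate 1), none of them called. The study's methods took all 4 tissues from each mouse, but the labels do not tie replicate numbers to mice, so no pairing was used. Deviations of same-numbered libraries correlated by -0.217 to 0.0528 over 6 tissue pairs, which does not show whether they share a mouse. With a replicate block 33 pairwise differences and 8 genes higher in small intestine were called, and no call of the 9 genes changed. Of 473 values recomputed under an alternative, 449 kept their direction and their side of the threshold, and the other 24 were the lung count, Muc1 against liver, and lung differences of Spdef, Spink4 and Agr2.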
